A study of Rattus norvegicus with 10 samples.

Results

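Clone S1 of HSC-2, a line of rat hepatic stellate cells, was set against clones S4 and S5 of the same line, all of them overexpressing miR-146a. The comparison holds 6 of the 10 arrays of the series, chosen by their labels: 2 of clone S1 and 4 of clones S4 and S5, with passages 42 and 43 of each clone. HSC-2 cells are of Wistar rats and were grown in high-glucose DMEM with serum and antibiotics. The other 4 arrays, an untransfected HSC-2 line and a line carrying a scrambled sequence at the same passages, served only to say which side departed from them. Each clone is 1 transfected line, and the labels name neither the vector nor its promoter. Whether the passages were separate cultures is not stated, so the p-values measure only the spread between these arrays. The spread between passages of a clone may be technical. In the main fit S4 and S5 shared 1 term, so the spread also holds their difference from each other. Genes on which S4 and S5 differ are therefore called less easily.

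Hepatic stellate cells store retinoids in the space between sinusoid and hepatocyte, and on liver injury they turn into contractile cells that lay down collagen. miR-146a is a microRNA induced by NF-kB that represses signalling proteins of the innate immune receptors, among them the kinase Irak1 and the ubiquitin ligase Traf6. Reported targets also include Smad4, which carries TGF-beta signals to the nucleus. A clone is grown from a single cell, so S1, S4 and S5 are separate lines that share 1 agent. The mature microRNA is shown because it is the agent that all 3 clones share; the seed, bases 2 to 8, is in capitals. RefSeq places it in GRCr8 at chr10:28350053-28350074, on the minus strand.
rno-miR-146a-5p: uGAGAACUgaauuccauggguu

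Total RNA was measured on Affymetrix arrays, and levels are given as log2 of the deposited intensity, in which the floor of 20 intensity units is 4.32. Array medians lay between 98.3 and 103.7 intensity units in the clones. Of stellate cell markers, 13 had a probe set. The collagens and the contractile genes Acta2 and Tagln were at high log2 levels in S1 and in S4 and S5 alike. Col1a2, a chain of type I collagen, had a mean of 14.71 in S1 and 14.68 in S4 and S5. Acta2, smooth muscle actin, had means of 12.34 and 12.44. Not all of the 13 were high or alike. Des, desmin, had means of 6.61 and 6.76. Thy1, also among the 13, had 6.56 in S1 and 8.48 in S4 and S5, against 12.11 in the controls. Lrat, the enzyme that forms retinyl esters in quiescent stellate cells, was at the floor on all 10 arrays, and Gfap, another quiescence marker, had means of 4.88 and 4.87. Among markers of other cells, 13 of 17 hepatocyte genes were below 6 on every clone array. So were 14 of 19 macrophage and leukocyte genes and 11 of 16 endothelial genes. The counts were 8 of 13 for biliary and epithelial genes and 16 of 29 for skeletal muscle, cartilage and neural genes. Only 3 of 22 portal fibroblast, mesothelial and smooth muscle genes were that dim. Cps1, Cyp3a2 and Pck1 of the hepatocyte list, Adgre1 and Cd163 of the macrophage list, Lyve1 and Nos3 of the endothelial list, and Cdh1, Cldn4 and Epcam of the biliary and epithelial list were at the floor on all 6. The mean log2 level of the hepatocyte list was 5.29 to 5.34 in S1 and 5.28 to 5.30 in S4 and S5. It was 5.38 to 5.40 and 5.36 to 5.39 for the macrophage list, 5.71 to 5.75 and 5.64 to 5.76 for the endothelial list, and 5.65 to 5.73 and 5.74 to 5.90 for the biliary and epithelial list. Thy1 belongs also to the list of portal fibroblast, mesothelial and smooth muscle genes. That list is not of other cells alone: Thy1, Myh11, Cnn1 and Actg2 are also on the stellate activation and contractile list examined below. The portal fibroblast, mesothelial and smooth muscle list had a mean of 7.52 to 7.54 in S1 and 7.62 to 7.81 in S4 and S5. The list of skeletal muscle, cartilage and neural genes had 6.01 to 6.04 in S1 and 5.96 to 6.13 in S4 and S5. The part of such cells in the results was not tested. In bulk RNA, fewer cells of a type and less RNA per cell cannot be told apart.

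Few genes set S1 apart. Cpxm2, Zfp182, Gprasp2 and Emb were lower in S1 than in S4 and S5, and Igf2bp3, Clic3 and Timp3 were higher, by factors from 1.96 to 7.07. In limma with passage as a block, 8 of 27205 probe sets, or 0.0294%, passed an adjusted p of 0.05. Of these, 3 were higher in S1 (0.011%) and 5 were lower (0.0184%), and they stand for 7 genes. An unadjusted p under 0.05 was found for 1810 probe sets (6.65%). Without the passage term 2 probe sets passed, and leaving out any 1 of the 6 arrays left 0. With 1 coefficient for each clone 88 passed, among them all 8. The directions of the 7 genes were kept in every one of these fits.

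Cpxm2 encodes a secreted protein of the carboxypeptidase family that lacks enzyme activity. Its log2 levels were 5.0 and 5.85 in S1 at passages 42 and 43, 7.69 and 8.94 in S4, and 7.38 and 8.97 in S5. All 4 arrays of S4 and S5 lay above both S1 arrays, and passage 43 was above passage 42 in each clone. The difference was -2.82 (SE 0.15, limma adjusted p = 0.0187), a factor of 7.07, and was -2.54 within passage 42 and -3.10 within passage 43. The other Cpxm2 probe set gave -2.29 (SE 0.14, limma adjusted p = 0.0194). On the first probe set the untransfected line had 5.22 and 5.28 and the scrambled line 6.34 and 6.37. There the S1 arrays lay below the scrambled line and on either side of the untransfected one. On the other probe set S1 was at 5.71 and 6.18. These levels were below the scrambled line (6.60 and 6.47) but above the untransfected line (5.16 and 5.15). S4 and S5 lay above all 4 control arrays on both probe sets.

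Zfp182, a zinc finger protein, was at the floor of 4.32 on both S1 arrays. It was at 6.39 and 6.07 in S4, 6.60 and 6.23 in S5, 6.70 and 6.16 in the untransfected line, and 7.10 and 7.57 in the scrambled line. S1 was thus the only line of the 5 in which this probe set was at the floor. The difference from S4 and S5 was -2.00 (SE 0.11, limma adjusted p = 0.0187), and the gene was at least 4.0-fold lower in S1. The floor hides any spread between the S1 arrays, so the SE may be too small. With log2 of intensity plus 32 this probe set did not pass. Its level in S4 and S5 overlapped the untransfected line, but all their arrays lay below both scrambled arrays.

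Igf2bp3, an RNA-binding protein that attaches to Igf2 and other mRNAs, showed the opposite arrangement. Its log2 levels were 7.79 and 7.73 in S1, 5.10 and 4.68 in clone S4, and 5.36 and 5.35 in clone S5. The control arrays lay from 7.59 to 8.14, and both S1 arrays fell among them. S4 and S5 were below every other array. The difference was 2.64 (SE 0.19, limma adjusted p = 0.0316), a factor of 6.22. The other 2 Igf2bp3 probe sets differed by 0.78 and 1.18 but did not pass (limma adjusted p = 0.201 and 0.212). On those dimmer probe sets S4 and S5 were at 4.32 to 4.82, at or near the floor, which has no order below it.

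Timp3 binds the extracellular matrix and inhibits metalloproteinases. Its log2 levels were 11.17 and 11.54 in S1, 9.97 and 10.27 in clone S4, and 10.16 and 10.41 in clone S5. They were 6.87 and 7.98 in the untransfected line and at the floor in the scrambled line. All 3 clones were above all control arrays, and S1 was the highest of them. The difference between S1 and the other clones was 1.15 (SE 0.09, limma adjusted p = 0.0316), a factor of 2.22. Its other 3 probe sets differed by 0.96, 1.02 and 1.30 in the same direction without passing (limma adjusted p = 0.394, 0.192 and 0.182).

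Clic3, a chloride intracellular channel protein, had log2 levels of 7.91 and 9.11 in S1, 6.71 and 7.36 in clone S4, and 6.54 and 7.58 in clone S5. The control arrays ranged from 5.25 to 7.03. S1 lay above all of them at both passages, S4 and S5 at passage 43 only. The difference was 1.46 (SE 0.11, limma adjusted p = 0.0316), or 1.29 at passage 42 and 1.63 at passage 43. Each clone was higher at passage 43, S1 by 1.19, S4 by 0.65 and S5 by 1.04.

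Gprasp2 binds G protein-coupled receptors and takes part in their sorting. It was at 4.53 and 5.28 in S1, 5.60 and 6.39 in clone S4, and 5.75 and 6.62 in clone S5, a difference of -1.19 (SE 0.09, limma adjusted p = 0.0316). Emb, embigin, is a membrane partner of monocarboxylate transporters. It was at 7.45 and 7.27 in S1, 8.45 and 8.30 in clone S4, and 8.43 and 8.14 in clone S5, a difference of -0.97 (SE 0.07, limma adjusted p = 0.0316). For neither gene did either side depart from the controls as a whole. The control lines were themselves apart for Emb, with 8.88 and 8.96 in the untransfected line and 7.15 and 6.74 in the scrambled line.

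**Figure D1:**
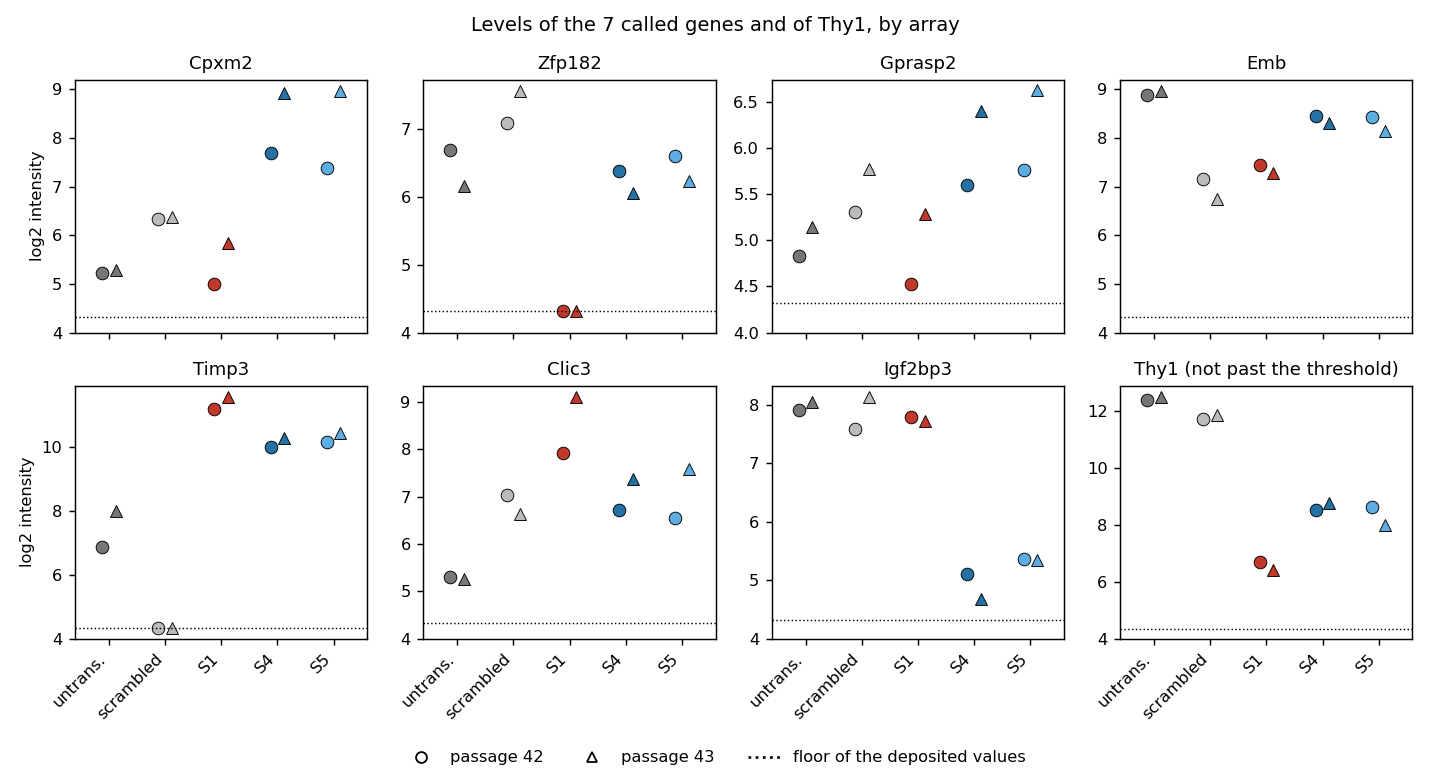
Log2 intensity of the 7 genes past an adjusted p of 0.05, and of Thy1, which did not pass, on each of the 10 arrays. Each point is 1 array at passage 42 or 43 of its line, and the dotted line is the floor at 4.32; Zfp182 is at that floor on both S1 arrays alone, and Igf2bp3 is low in S4 and S5 alone.

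Side of the controls was read array by array. A side was taken to depart where all its arrays lay beyond all 4 control arrays in 1 direction. Of the 8 called probe sets, S1 alone departed in 2 (Zfp182 and Clic3), S4 and S5 alone in 3 (both of Cpxm2 and that of Igf2bp3), both sides in the same direction in 1 (Timp3) and neither in 2 (Gprasp2 and Emb). Against the untransfected line alone the counts were 1, 2, 5 and 0. Against the scrambled line alone they were 2, 1, 3 and 0, with both Cpxm2 probe sets departing in opposite directions. S1 alone departed in 3089 of all 27205 probe sets (11.4%) and S4 and S5 alone in 533 (1.96%), but S1 has fewer arrays that must lie outside, so these 2 shares are not on 1 footing.

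Both S1 arrays lay beyond all 4 S4 and S5 arrays in 3034 probe sets (11.2%), above in 1333 (4.9%) and below in 1701 (6.25%). A wider gap, of at least 0.5 on the log2 scale, was found in 33 probe sets (0.121%). This gap was chosen after the values were seen, so the genes it names are a description with no test of their own. They stand for 20 genes, of which 5 had passed in limma, and 6 of the probe sets have no gene symbol. Of the other 15 genes, 11 were lower in S1 and 4 higher.

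Thy1, a surface glycoprotein of fibroblasts and T cells, had the widest gap of these 15 genes after Abo3. It was at 6.71 and 6.42 in S1, 8.52 and 8.78 in clone S4, and 8.64 and 7.99 in clone S5, against 11.71 to 12.49 in the control lines. All clones were below the controls, and S1 was the lowest. The difference of S1 from S4 and S5 was -1.92 (SE 0.20, limma adjusted p = 0.170). The other Thy1 probe set differed by -1.50 (limma adjusted p = 0.456).

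On the probe sets with the gap, Abo3, Fgg, Faslg and Ptprb were at 5.42 or below in S1 and the controls. Abo3, a glycosyltransferase of the ABO family, was at the floor on both S1 arrays and all 4 control arrays by 1 of its 3 probe sets, against 6.05 and 5.74 in S4 and 7.11 and 6.92 in S5. By that probe set it was at least 4.38-fold lower in S1 (limma adjusted p = 0.479). The second Abo3 probe set was 3.0-fold lower in S1 (-1.59, limma adjusted p = 0.226), with S1 at 4.73 and 4.64, above controls of 4.32 to 4.40. The third differed by only -0.33 (limma adjusted p = 0.666), with S1 at 5.70 and 5.76 among controls of 5.42 to 6.04. Fgg, the gamma chain of fibrinogen, was at 4.32 and 4.39 in S1 and 5.28 to 5.68 in S4 and S5 (limma adjusted p = 0.173). Faslg, the ligand of the death receptor Fas, was at 5.33 and 5.22 in S1, 6.96 and 6.66 in clone S4, and 6.37 and 6.04 in clone S5, with controls from 5.17 to 5.42 (limma adjusted p = 0.464). Ptprb, a receptor tyrosine phosphatase of endothelium, was at 4.71 and 4.61 in S1, 8.38 and 7.52 in clone S4, and 6.46 and 5.31 in clone S5, with controls from 4.32 to 5.39 (limma adjusted p = 0.730). The lower S5 array thus lay among the Ptprb controls, and so it did on the other Ptprb probe set, which differed by -1.03 (limma adjusted p = 0.736). S5 lay nearer than S4 to S1 for both Faslg and Ptprb.

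Other genes had, on the probe set with the gap, their lowest levels of the whole series in S1. Map2, a microtubule-associated protein, was at the floor on both S1 arrays, at 6.76 and 5.58 in S4, 5.79 and 5.0 in S5, and 6.80 to 7.96 in the controls (limma adjusted p = 0.666). It was at least 2.75-fold lower in S1 on this probe set, whereas its other probe set differed by only -0.14. Adamts4, a protease of the proteoglycan aggrecan, was at 6.38 and 6.22 in S1, 7.69 and 7.94 in S4, 6.94 and 7.21 in S5, and 7.63 to 9.19 in the controls (limma adjusted p = 0.666). Aldoc, a glycolytic aldolase, differed by -0.91 (limma adjusted p = 0.239), Zfp763, a zinc finger protein, by -0.70 (limma adjusted p = 0.201) and Bcar3, an adaptor of integrin signalling, by -0.62 (limma adjusted p = 0.226). For Cdh10, a cadherin that differed by -0.91 (limma adjusted p = 0.312), it was S4 and S5 that lay above the controls.

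Toward higher levels, Grin2c, a subunit of the NMDA receptor, was at 7.60 and 8.46 in S1 and at 6.30 to 6.83 on the other 8 arrays. Its difference from S4 and S5 was 1.42 (SE 0.19, limma adjusted p = 0.238). Nnat, the imprinted gene of neuronatin, was at 6.84 and 7.75 in S1 and 5.62 to 6.31 elsewhere (difference 1.35, limma adjusted p = 0.498). Hey2, a repressor induced by Notch, was at 7.94 and 7.93 in S1, 6.19 and 5.45 in clone S4, and 7.39 and 7.16 in clone S5 (limma adjusted p = 0.736). The Hey2 controls ranged from 4.57 to 9.78. Cacna1c, the pore subunit of an L-type calcium channel, differed by 1.05 on 1 probe set and by 0.15 on the other (limma adjusted p = 0.365 and 0.821). With a coefficient for each clone, 11 of these 15 genes passed, and Map2, Cdh10, Zfp763 and Nnat did not. Over all probe sets 88 of 27205 passed in that fit, which has 2 residual degrees of freedom. The 15 genes were picked by the same difference on the same arrays, so the 11 are no separate support.

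**Figure D2:**
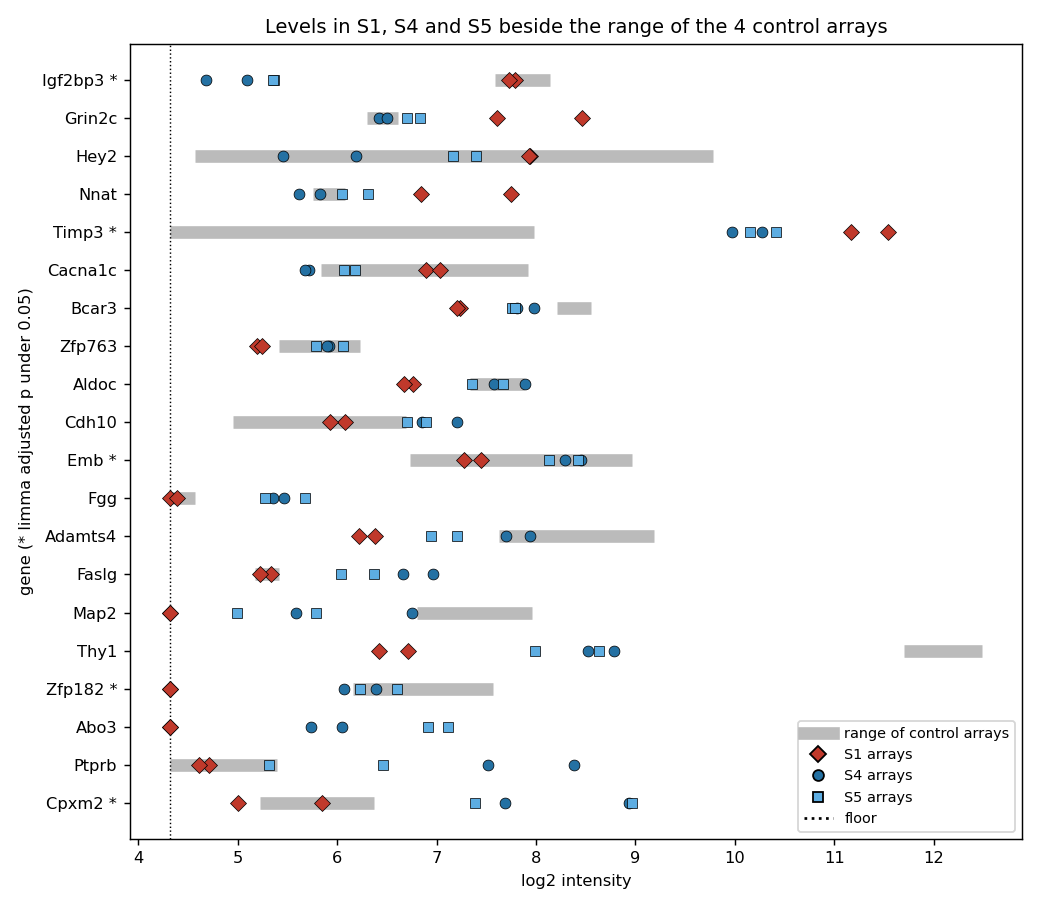
Log2 intensity on the clone arrays of 20 genes whose S1 arrays lay at least 0.5 from all S4 and S5 arrays, with a grey bar for the range of the 4 control arrays. Red diamonds are S1, circles S4 and squares S5. An asterisk marks limma adjusted p under 0.05; the S1 arrays of Zfp182 are at the floor, and those of Grin2c are above every other array.

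Distances between clones were unequal. At passage 42, 208 probe sets differed by at least 2-fold between S1 and S4, 31 between S1 and S5 and 132 between S4 and S5. At passage 43 the numbers were 179, 34 and 107. S1 and S5 were thus the closest pair at both passages, and S4 lay farther from each. Passage 43 differed from passage 42 by at least 2-fold in 147 probe sets within S1, 168 within S4 and 148 within S5, more than the S1 to S5 difference. The design that set S1 against the other 2 clones gave 228 calls (0.838%) when applied to S4 and 1 (0.00368%) when applied to S5. These fits share their 6 arrays, so they describe the same data 3 ways.

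The reported targets of miR-146a were examined because all 3 clones carry it. Of 37 measured, 0 passed in limma, 3 had both S1 arrays above and 2 below those of S4 and S5, and the median difference was 0.04. Over all 13186 genes, by their brightest probe set, 6 passed (0.0455%), S1 lay above in 617 (4.68%) and below in 855 (6.48%), and the median difference was -0.01. Irak1 had log2 levels of 10.97 and 10.84 in S1 and 10.79 to 11.01 in S4 and S5, a difference of 0.02 (SE 0.09, limma adjusted p = 0.970) whose sign turned to -0.05 against S5 alone. Traf6 was at 8.10 and 8.22 in S1 and 7.91 to 8.15 in S4 and S5 (difference 0.11, SE 0.07, limma adjusted p = 0.783). Smad4 was at 10.44 and 10.39 in S1 and 10.41 to 10.65 in S4 and S5 (difference -0.10, SE 0.08, limma adjusted p = 0.820). On these probe sets, the brightest of each gene, the sides overlapped. On a dimmer Irak1 probe set S1 lay above all S4 and S5 arrays (difference 0.10, limma adjusted p = 0.798), and on 1 of the other 3 of Traf6 it lay below them (-0.14, limma adjusted p = 0.752). Egfr, the epidermal growth factor receptor, was at 4.58 and 4.69 in S1, 5.22 and 5.23 in clone S4, and 5.56 and 4.93 in clone S5. The untransfected line had 8.45 and 9.07, but the scrambled line only 5.75 and 5.58. The Egfr difference of -0.60 did not pass (limma adjusted p = 0.676). Its other probe sets differed by -0.44 (limma adjusted p = 0.666) and -0.03, the latter at the floor on both S1 arrays. Wasf2, a regulator of actin branching, did not pass either, at -0.31 (limma adjusted p = 0.736).

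Among 30 gene lists for stellate cells, signalling pathways and other cell types, 957 of 1144 genes were measured and 0 passed by their brightest probe set. Taken by the probe set of smallest p, 1 passed (Timp3). S1 lay above in 49 members and below in 58, or 11.2%, the share over all genes. The list medians ran from -0.06 to 0.07. In the stellate activation and contractile list S1 lay above in 0 and below in 3 of 26: Thy1, Myl9, a myosin light chain (-0.86, limma adjusted p = 0.239), and Fap, a fibroblast serine protease (-0.40). Of 30 genes of collagens and their processing, S1 was above in 2, the chaperone Serpinh1 (0.07) and the prolyl hydroxylase subunit P4ha2 (0.42). S1 was below in 2, the lysyl oxidase family member Loxl3 (-0.40) and Col16a1 (-0.29). The largest difference of that list was 2.20, for Col14a1. Its S1 arrays, at 11.48 and 11.98, overlapped those of S5 at 10.49 and 11.50, with S4 at 7.19 and 8.94. The shares apart were 11.5% in the stellate activation list and 13.3% in the collagen list.

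In the Notch list 3 of 21 were above, Hey2, Maml1 (0.16) and Notch3 (0.11), and 1 was below, the feedback gene Nrarp (-0.26). Of 35 adhesion genes 5 were above, led by the integrin subunits Itga7 (0.92) and Itgb6 (0.50), and 1 was below, Cdh10. Of 72 homeobox and developmental transcription factors S1 was above in 0 and below in 10 (13.9%). Over all genes 11.2% were apart, with S1 above in 4.68% and below in 6.48%. Those 10 included Hoxb2 (-0.27), Hoxb3 (-0.24) and Hoxb4 (-0.17), neighbours in a cluster that patterns the body axis, and Ebf1 (-0.46). The antioxidant list had 2 of 45 above and 6 below, the latter small, from -0.18 for Mgst1, a glutathione transferase, to -0.14 for Gclc, which makes the precursor of glutathione. None of these members passed in limma. The shares apart were 19% in the Notch, 17.1% in the adhesion and 17.8% in the antioxidant list, against 11.2% over all genes. They were as large in the hepatocyte list (21.4%) and the portal fibroblast, mesothelial and smooth muscle list (18.2%).

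Mitosis and DNA replication had 0 of 45 members apart in either direction, with values from -0.20 (Fen1, a flap nuclease) to 0.13 (Cenpa, the centromere histone). In the inflammatory list 4 of 53 were above, among them the chemokine Ccl2 (0.38), and 3 below, among them Il1r1, the receptor of interleukin-1 (-0.40). Of 49 TGF-beta and BMP genes 3 were above, led by Ltbp1 (0.39), which tethers latent TGF-beta, and 1 below, Tgif1 (-0.24). The growth factor list had 3 of 62 above, led by Flt1 (0.68), and 6 below, among them Egfr and the PDGF receptor Pdgfra (-0.58). None of these passed either. The shares apart were 13.2% in the inflammatory, 8.16% in the TGF-beta and BMP and 14.5% in the growth factor list, against 11.2% over all genes.

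**Figure D3:**
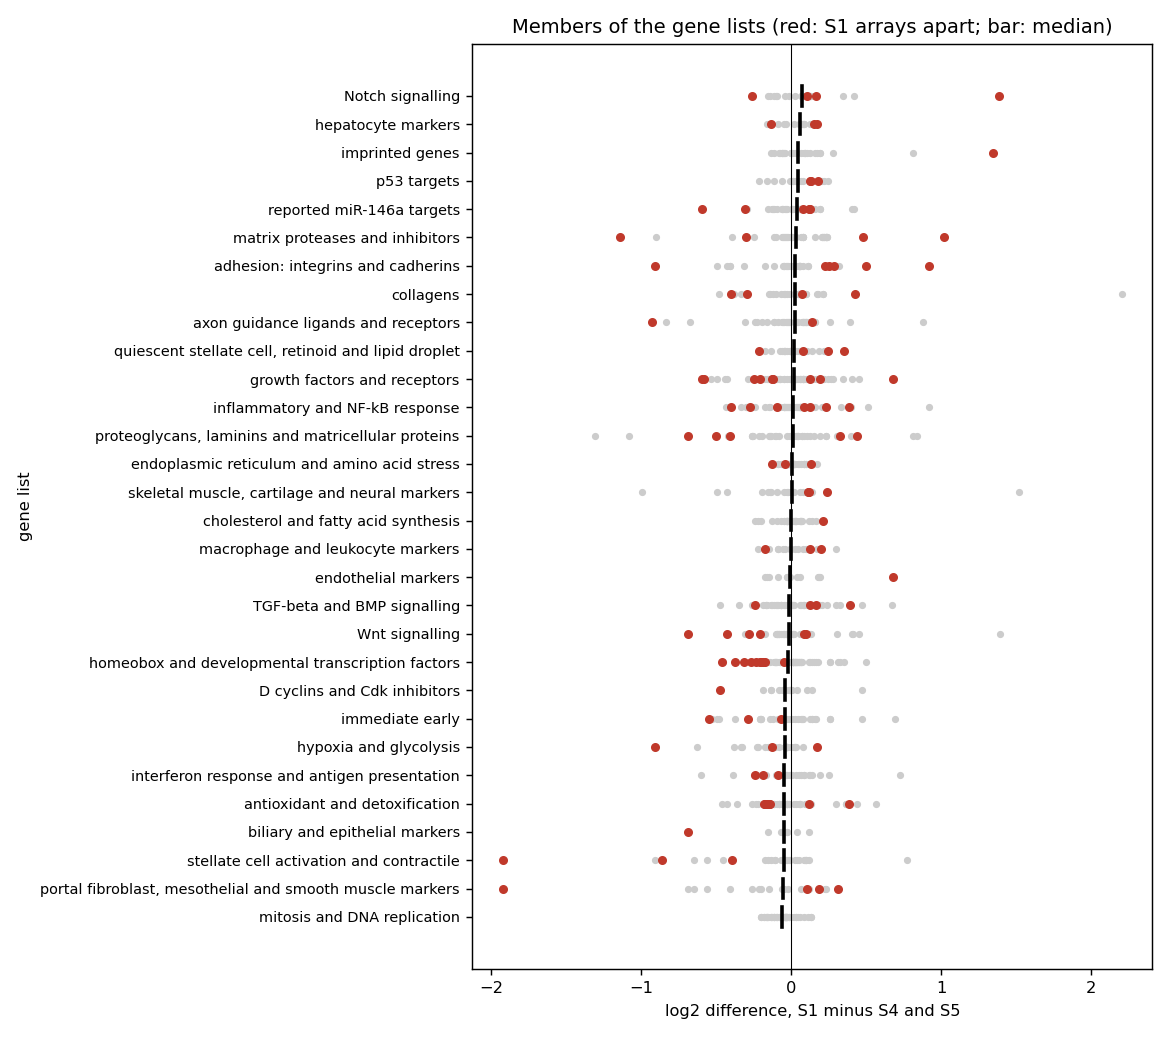
Log2 difference of S1 from S4 and S5 for the members of the 30 gene lists, 1 point per gene and 1 row per list. Members with both S1 arrays apart are in red and the bar is the list median, which lies between -0.06 and 0.07 in every list; 0 members passed in limma.

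Neighbouring genes were read for runs that differ together along a chromosome. The order of 13139 genes gave 12635 windows of 25 genes, and a window counted where its median passed 0.25 in the same direction in each of the 4 pairs of S1 with another clone at the same passage. There were 0 such windows, and also 0 with windows of 15 or 40 genes. In windows of 25 genes, medians of any single pair lay between -0.17 and 0.17. In windows of 15 genes they ran from -0.22 to 0.34, so a single pair could pass 0.25. Over windows of 25 genes, the largest value that all 4 pairs reached was 0.06 (Msra to Dpysl2), and the lowest was -0.07 (Mif to Slc16a9). Of 39 measured neighbours of the 7 genes, up to 3 on each side, 0 passed in limma and 6 (15.4%) had the S1 arrays apart, against 11.2% over all genes. Next to Gprasp2, its relatives Gprasp1 and Gprasp3 differed by -0.01 and 0.02. Zfp182 was followed by Uxt (-0.01), Elk1 (-0.13) and Cfp (0.10), and Igf2bp3 lay between Malsu1 (-0.13) and Tra2a (0.13). The neighbour farthest from 0 was Nxf7, an RNA export factor near Gprasp2, at -0.95 with overlapping arrays (limma adjusted p = 0.812), and the highest was Entpd2 near Clic3 at 0.31 (limma adjusted p = 0.730).

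**Figure D4:**
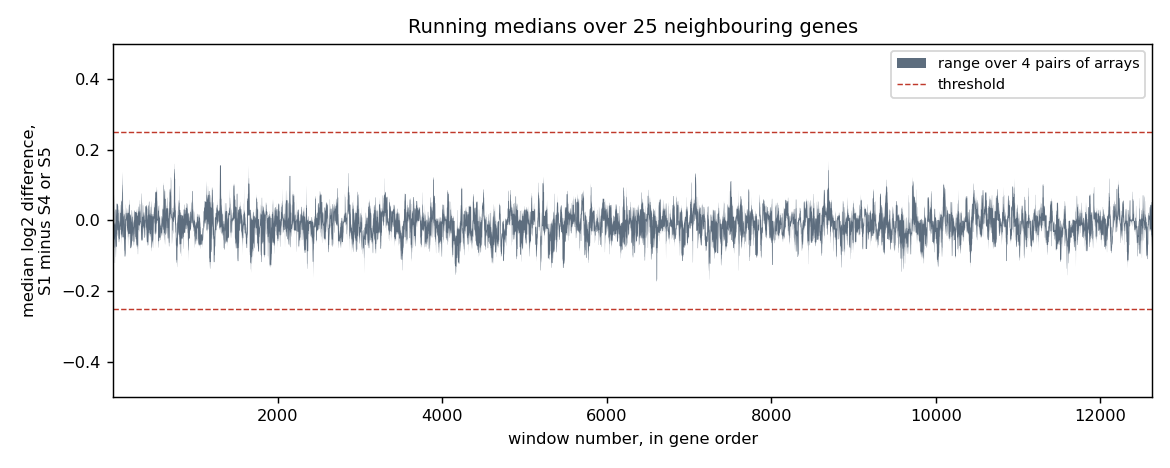
Median log2 difference in sliding windows of 25 neighbouring genes, in the order of the GRCr8 gene table, as the range over the 4 pairs of S1 with S4 or S5 at the same passage. The dashed lines are at 0.25 and -0.25, and the medians stay between -0.17 and 0.17.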

How the data were processed

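The deposited table holds 1 linear intensity per probe set and array, which the authors made by RMA according to the submitters' processing notes. Its version and any return from log2 to linear values: not given in the sources used here. Of the intensities on the clone arrays 14.6% were at the floor of 20. A log2 table had been assumed, so log2 was taken before each test. Of 31099 probe sets, 57 array controls, 6 of Y-chromosome genes and 3831 at the floor on all 6 clone arrays were left out. Of the 27205 tested, 19031 had 1 symbol in the platform annotation (13186 genes), 394 several and 7780 none. Gene identifiers matched the GRCr8 gene table for 18971, changing 0 symbols; that table gave names and gene order only.

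S1 was compared with S4 and S5 by limma 3.58.1 in R 4.3.3 (lmFit and eBayes, 1 group term plus passage, 3 residual degrees of freedom), with Benjamini-Hochberg adjustment over all tested probe sets. S4 and S5 were thereby treated as 1 group. Passage pairs the arrays: deviations of equal passages from the clone means correlated at 0.59, 0.65 and 0.54 between clones. Named are up to 15 genes per direction past the threshold with S1 apart (smallest p), up to 3 passing members of a list, Irak1, Traf6 and Smad4 (highest mean) and run ends; other genes were named after their values were seen. List members were taken by the brightest probe set. The members and lists were chosen with earlier results of these data known. The scripts were tested on simulated data. The number of arrays limits the precision.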

Additional observations from a re-analysis of the deposited data

How the results depend on the processing

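The 7 genes kept their direction under all 11 other settings and in all 6 fits that left out 1 array, but none kept an adjusted p under 0.05 throughout: each called probe set passed in 5 to 8 of the 11 settings and in 0 of the 6 fits. Against 8 calls (3 higher, 5 lower), limma gave 2 (1 and 1) with no replicate block, that is without passage, 88 (45 and 43) with 1 coefficient per clone, and 12 (2 and 10) with 1 coefficient for each of 5 lines on 10 arrays, 4 of them shared with the 8. It gave 1 (1 and 0) with log2 of intensity plus 32. It gave 0 with S1 against S4 alone (3434 at unadjusted p under 0.05), S1 against S5 alone (1962), no filter on dim probe sets (2232) and each of the 6 fits without 1 array (816 to 2650). Quantile normalisation, median centring and a filter on dim probe sets each gave 8, and an intensity trend gave 9. The cause was not tested. Residual degrees of freedom were 3 in the main fit and with no filter, and 4 without passage. They were 2 both with 1 coefficient per clone and in the fits without 1 array, and 1 against S4 or S5 alone. Without 1 array, the difference ran from -3.10 to -2.54 for Cpxm2, -2.17 to -1.83 for Zfp182, 2.48 to 2.77 for Igf2bp3, 1.29 to 1.63 for Clic3, 1.10 to 1.20 for Timp3, -1.23 to -1.13 for Gprasp2 and -1.01 to -0.94 for Emb; their lowest adjusted p was 0.0809. Irak1 turned to -0.048 against S5 alone and ran from -0.077 to 0.12 without 1 array. By the untransfected line alone, 1 called probe set departed in S1 only, 5 on both sides in the same direction and 0 on neither; by the scrambled line alone, 1 in S4 and S5 only, 3 on both sides and 0 on neither. List members called went from 0 to 1 with the probe set of smallest p. S1 is 1 clone, so a difference of the clone cannot be told apart from one of its 2 arrays.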

Other observations

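The fit with 1 coefficient for each clone, in which the spread is taken within clones, also passed genes whose S1 arrays overlapped those of S5 or S4. Wnt4, a secreted Wnt ligand, was at log2 levels of 9.11 and 9.57 in S1, 8.62 and 9.52 in S5 and 6.41 and 7.26 in S4 (difference of S1 from S4 and S5 1.39, limma adjusted p = 0.0180 in that fit). Stmn2, a tubulin-binding protein of neurons, was at 10.50 and 9.99 in S1, 10.21 and 9.79 in S5 and 7.58 and 7.32 in S4 (1.52). Postn, the matricellular protein periostin, was at 9.38 and 8.53 in S1, 9.65 and 8.63 in S5 and 11.92 and 10.86 in S4 (-1.31). In these 3 genes S4 stood away from both other clones. Of the 88 probe sets past the threshold in that fit, 49 had both S1 arrays apart.

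Pdpn, the surface protein podoplanin, was at 10.25 and 10.42 in S1 and 10.14 and 10.32 in clone S4 but 8.78 and 9.0 in clone S5, against 5.22 to 7.33 in the control lines. Here S5 was the clone that stood away, and all 3 clones lay above the controls.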
